A study of Arabidopsis thaliana with 6 samples.

Results

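The NAC transcription factors of Arabidopsis thaliana were followed in seedlings of the cpl2-2 mutant. The set was every gene whose transcription factor family is given as NAC in the deposited gene table (113 genes), leaving out 3 genes of the endoplasmic reticulum stress response, which gave 110 members among 38192 genes. RNA was sequenced from the aerial parts of 9-day-old seedlings of 2 genotypes, wild-type Col (WT) and cpl2-2, described in the labels as a knockout of CPL2, with 3 libraries each. All plants grew at 23 ± 2 °C in long days of 16 h light and 8 h dark. The genotypes share the Col background and received no further treatment that the labels name. Neither the kind of lesion nor the number of independent cpl2-2 lines is stated in the labels. CPL2 belongs to a small family of phosphatases that remove phosphate from the tail of RNA polymerase II.

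NAC proteins are a large plant-specific family that binds DNA through a conserved N-terminal domain and activates or represses transcription through a variable C-terminal part. Members place the boundaries between organs, switch on wall thickening in xylem, carry signals of drought, DNA damage and organelle stress, and promote or delay the ageing of leaves. Some are held at the endoplasmic reticulum or another membrane by a C-terminal anchor and reach the nucleus after cleavage. A few are cut at the level of their transcripts by the microRNA miR164.

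Libraries held 18299294 to 21098728 counts, and levels are given in CPM, counts scaled to a common library size. A gene was called when edgeR's quasi-likelihood F test gave an adjusted p under 0.05 after Benjamini-Hochberg adjustment over 19302 genes, the source of every adjusted p below where no other test is named. A log2 fold change is of cpl2-2 over WT and is followed by ± its standard error (SE), and a level by ± its SD over 3 libraries. CPL2 itself had 391, 378 and 393 counts in WT and 198, 229 and 222 in cpl2-2. It was lower in each cpl2-2 library (log2 fold change -0.82, adjusted p = 6.0e-09). The level went from 19.0 ± 0.47 to 10.7 ± 0.15 CPM, so reads from the gene remained. The counts alone do not check the knockout that the labels name. The tissue was checked against marker genes. Of 4 leaf genes for photosynthesis, 3 fell and 1 rose, and their summed level went from 41084 ± 676 CPM in WT to 32007 ± 715 CPM in cpl2-2 (mean ± SD, n = 3). Of 10 root markers, 4 (CASP4, CASP5, EXPA7 and EXPA18) had 0 counts in every library, and the summed level of the list, nearly all of it from the beta-glucosidase gene PYK10, was 306 to 321 CPM in WT and 299 to 324 CPM in cpl2-2. CASP1, a gene of the root endodermis, was the one called root marker, at 0.538 ± 0.17 CPM in WT and 1.29 ± 0.31 CPM in cpl2-2. The 5 flower identity genes together stood at 3.02 to 3.61 CPM in WT and 10.4 to 12.9 CPM in cpl2-2, most of it from SEP3. The part of these shifts in the values of the NAC genes was not tested. In whole aerial parts, a change in the number of cells of a type and a change in RNA per cell cannot be told apart.

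More NAC genes rose than fell in cpl2-2. Of the 110 members, 20 had no count in any library, which allows up to 3 counts in a library by counting error alone, 28 had too few counts for the test and 62 were tested. Of these 62, 17 rose (27.4%), where 14.1% of all tested genes rose, and 3 fell (4.84%), where 13.3% of all tested genes fell. With library totals as the scaling, 20.5% of all tested genes were called higher and 18 members rose, with 3 lower. The other 42 were not called. Rises of at least 2-fold were found in 9 of the 62 (14.5%, against 3.07% of all tested genes). All 9 averaged under 5 CPM, a level that held 40 of the 62 members but 5258 of the 19302 tested genes. The 3.07% was not matched for level. Every cpl2-2 library stood above every WT library in 18 of the 62 (29.0%, against 19.8% of all tested genes) and below in 7 (11.3%, against 19.2%). The median log2 fold change of the tested members was 0.15, that of all tested genes 0.00, and 43 of the 62 had a positive value. The summed level of all members was 473, 500 and 487 CPM in WT and 551, 544 and 558 CPM in cpl2-2, with no overlap between the genotypes. Since the genes that are scarce in these seedlings held many of the large changes, the members were also split by mean level, a split chosen after the values were seen. Under 5 CPM, 11 of 40 members rose (27.5%, against 11.7% of all tested genes at that level), and from 5 CPM upward 6 of 22 rose (27.3%, against 15.0%). The cumulative plot sets the members beside all tested genes.

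**Figure D1:**
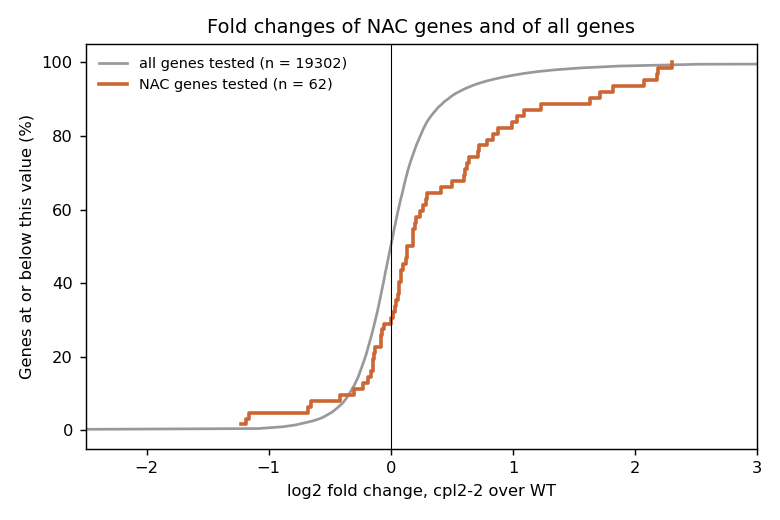
Share of genes, in percent, at or below each log2 fold change (cpl2-2 over WT) for the 62 tested NAC genes (orange) and all 19302 tested genes (grey). The NAC curve lies to the right of the grey one over the positive range, with medians of 0.15 and 0.00, and it lies above the grey curve at the lowest values, where NAC086, NAC057 and AT2G02455 stand.

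**Figure D2:**
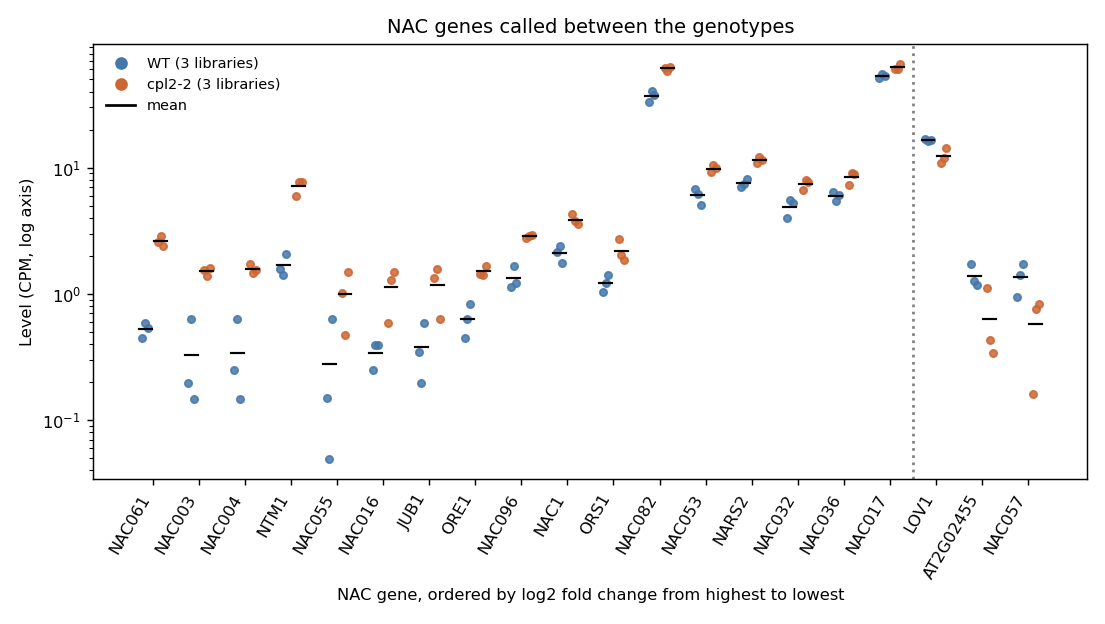
Level in CPM, on a log axis, of the 20 called NAC genes in each of the 3 WT libraries (blue) and 3 cpl2-2 libraries (orange), with a line at each mean, ordered by log2 fold change. The dotted line parts the 17 genes that rose from the 3 that fell. The genotypes overlap in NAC055 alone among the 20.

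The largest rises by log2 fold change were in NAC061, NAC003, NAC004 and NTM1, genes that stood between 0.326 and 1.68 CPM in WT. The 250 bases before the annotated start of these 4 genes are shown, because their transcripts changed the most. They are given 5′ to 3′ on the gene's strand (RefSeq, TAIR10.1) with each CACG or its reverse complement CGTG, the core that NAC proteins are known to bind, in capitals. NAC061 lies at chr3:16022575-16024519 on the minus strand, and the stretch shown is chr3:16024520-16024769. For NAC003 the stretch is chr1:430721-430970, for NAC004 chr1:436923-437172 and for NTM1 chr4:672790-673039, all on the minus strand.
NAC061: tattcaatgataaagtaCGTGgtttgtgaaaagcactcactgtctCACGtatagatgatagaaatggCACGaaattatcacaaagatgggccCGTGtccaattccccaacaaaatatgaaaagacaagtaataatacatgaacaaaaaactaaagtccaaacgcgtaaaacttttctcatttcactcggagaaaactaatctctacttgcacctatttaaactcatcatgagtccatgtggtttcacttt
NAC003: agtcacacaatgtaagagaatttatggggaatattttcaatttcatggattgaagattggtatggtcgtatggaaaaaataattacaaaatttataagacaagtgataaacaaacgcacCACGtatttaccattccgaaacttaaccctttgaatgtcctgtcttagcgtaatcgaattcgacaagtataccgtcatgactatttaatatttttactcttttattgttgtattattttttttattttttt
NAC004: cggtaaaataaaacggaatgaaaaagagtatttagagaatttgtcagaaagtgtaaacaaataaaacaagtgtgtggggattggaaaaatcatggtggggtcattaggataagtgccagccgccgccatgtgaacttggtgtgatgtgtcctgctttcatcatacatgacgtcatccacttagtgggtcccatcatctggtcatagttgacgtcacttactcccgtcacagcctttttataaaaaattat
NTM1: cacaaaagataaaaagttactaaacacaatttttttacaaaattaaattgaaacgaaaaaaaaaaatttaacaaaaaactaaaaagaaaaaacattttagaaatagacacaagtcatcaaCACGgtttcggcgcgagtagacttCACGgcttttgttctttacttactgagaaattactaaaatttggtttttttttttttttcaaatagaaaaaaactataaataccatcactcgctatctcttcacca

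The core was found at 4 places before NAC061, 2 before NTM1, 1 before NAC003 and none before NAC004. Among the 17 members that rose, 8 held CACG on either strand in these 250 bases (47.1%), where 54.8% of the 62 tested members and 44.6% of 37998 promoters in the genome did. The G-box CACGTG, which contains the core, was found in 1 of the 17 (NAC032; 5.88%, against 5.40% of all promoters). The W-box was searched in the form TTGACC only, on either strand, and this form was found in JUB1 and NAC032 (11.8%, against 11.5%). A short match describes the letters of the window only.

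NAC061 (AT3G44350), a relative of NAC090, which delays leaf senescence, had 9, 12 and 11 counts in the WT libraries and 48, 60 and 49 in cpl2-2. All 3 cpl2-2 libraries lay far above all 3 WT libraries, and replicates of a genotype lay close together. The level rose from 0.522 ± 0.071 to 2.59 ± 0.24 CPM (SD, n = 3), a log2 fold change of 2.30 ± 0.35 (adjusted p = 8.5e-07). NAC090 itself had 6, 1 and 1 counts in WT and 4, 3 and 1 in cpl2-2, too few for the test. The coding sequences of the pair match at 76.3% of aligned bases, and NAC061 shares no stretch of 50 bases with any other gene's transcript.

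NAC003 (AT1G02220) and NAC004 (AT1G02230) lie on the minus strand of chromosome 1 with 4244 bases and 1 gene between them, and no role is given for either here. They fell outside the naming rule because their mean level was under 1 CPM, and are named after their values were seen. NAC003 had 4, 13 and 3 counts in WT and 29, 29 and 33 in cpl2-2. For NAC004 the counts were 5, 13 and 3 in WT and 32, 31 and 32 in cpl2-2. The pair ran almost in step from library to library, with WT replicate 2 the highest WT library in both, and still below every cpl2-2 library. The log2 fold change was 2.19 ± 0.47 for NAC003 (adjusted p = 2.4e-04) and 2.18 ± 0.46 for NAC004 (adjusted p = 1.8e-04). Without WT replicate 2 these values were 3.09 and 2.96. The 2 coding sequences match at 82.7% of aligned bases but share no stretch of 50 bases, so a read of that length matching 1 of them in full does not match the other. NAC003 shares 1.10% of its 50-base windows with the neighbouring NAC005, which had 1 count in all 6 libraries together.

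The membrane-tethered members hold both abundant genes (NAC017, NAC078) and the steep rise of NTM1. Of 11 listed, 9 were tested, 4 rose (NTM1, NAC053, NAC016 and NAC017) and 0 fell (44.4% higher, against 14.1% of all tested genes higher and 13.3% lower). The median log2 fold change of the 9 was 0.20, and 7 of 9 values were positive. Their summed level was 157 ± 4.6 CPM in WT and 178 ± 4.9 CPM in cpl2-2.

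NTM1 (AT4G01540, chr4:670483-672789, minus strand), a membrane-bound factor known for a link between cytokinin and cell division, had 32, 29 and 42 counts in WT and 111, 162 and 158 in cpl2-2. No WT library came near any cpl2-2 library. The level rose from 1.68 ± 0.33 to 7.09 ± 1.0 CPM (adjusted p = 3.5e-11 for a log2 fold change of 2.07 ± 0.21). NTM2, the relative 1072 bases upstream on the same strand, had 133, 177 and 170 counts in WT and 143, 156 and 196 in cpl2-2, overlapping groups with a log2 fold change of 0.06 ± 0.14 (adjusted p = 0.79). The log2 ratio of NTM1 over NTM2 within each library, with 0.1 CPM added to both, was -1.99, -2.53 and -1.97 in WT and -0.36, 0.05 and -0.31 in cpl2-2. The ratio thus differed between the genotypes by 1.96 with no overlap, and a two-sided exact permutation test gave p = 0.10, the smallest that 3 libraries against 3 allow. NTM1 shares 20.7% of its 50-base windows with NAC067, a near neighbour that had 0 counts in all 6 libraries, so reads of that part of NTM1 could have been placed on either gene.

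NAC016 and NAC017 follow each other on the plus strand of chromosome 1 with 117 bases between them, and their coding sequences match at 83.1% of aligned bases. NAC016, which promotes leaf yellowing and the drought response, had 5, 8 and 8 counts in WT and 11, 27 and 31 in cpl2-2. The lowest cpl2-2 library, replicate 1, stood just above the highest WT libraries. The log2 fold change was 1.71 ± 0.49 (adjusted p = 0.0058), and without cpl2-2 replicate 3 the call was lost (1.44, adjusted p = 0.061). NAC017, the regulator that carries signals of disturbed mitochondria to the nucleus, was among the most abundant members and had 1031, 1134 and 1088 counts in WT and 1138, 1277 and 1370 in cpl2-2. Scaled to the libraries, these were 51.0, 55.3 and 53.0 CPM against 60.7, 60.6 and 66.5 CPM, a small rise with no overlap (adjusted p = 0.0013 for a log2 fold change of 0.24 ± 0.06). In the log2 ratio of NAC016 over NAC017 the genotypes differed by 1.16 without overlap (exact permutation test, two-sided, p = 0.10, the smallest possible).

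NAC053, also called NTL4, a factor of drought-related oxidative stress and, with NAC078, of proteasome gene expression, had 138, 127 and 104 counts in WT and 172, 219 and 204 in cpl2-2. It rose from 6.03 ± 0.89 to 9.82 ± 0.61 CPM without overlap (adjusted p = 1.1e-04 for a log2 fold change of 0.71 ± 0.14). NAC053 is the last of 3 NAC genes in a row on chromosome 3, after NAC050 and NAC052, which act as partners of the histone demethylase JMJ14. NAC050 (18.4, 19.8 and 20.4 CPM in WT, 22.9, 21.2 and 20.3 in cpl2-2) overlapped between the genotypes, with a log2 fold change of 0.13 ± 0.09 (adjusted p = 0.28). NAC052, whose end lies 14 bases before NAC053, was at 13.7 ± 0.47 CPM in WT and 13.9 ± 1.2 CPM in cpl2-2 (log2 fold change 0.02, adjusted p = 0.90). In the log2 ratio of NAC052 over NAC053 the genotypes differed by -0.68 (exact permutation test, two-sided, p = 0.10, the smallest possible), and this ratio too did not overlap. Such exact tests were made for the 6 pairs of tested members that adjoin on the same strand. In 4 of the 6 the raw p was 0.10, and adjusted over the 6 it was 0.15. Among the 4 was NAC050 over NAC052, where the genotypes differed by 0.11, so small and large differences reached the same p.

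**Figure D3:**
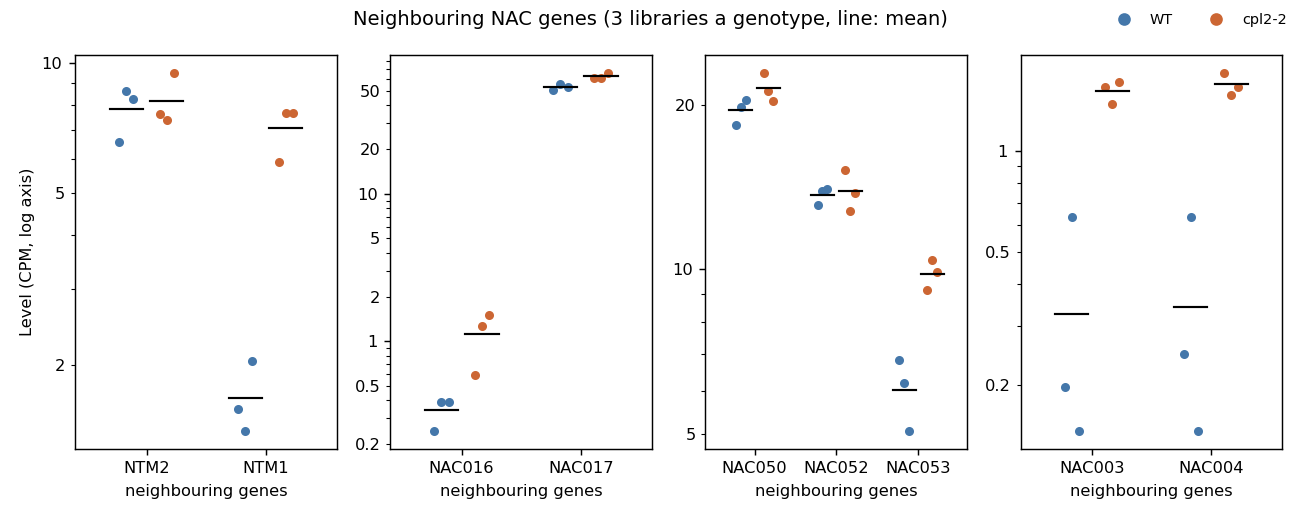
Level in CPM, on a log axis of its own in each panel, of 4 groups of neighbouring NAC genes in the 3 WT (blue) and 3 cpl2-2 (orange) libraries, with a line at each mean. NTM1, NAC016 and NAC053 stand apart between the genotypes, NTM2, NAC050 and NAC052 overlap, and NAC003 and NAC004 move side by side.

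Of the membrane-tethered members that were not called, NAC078 was abundant, with 52.4, 50.4 and 47.2 CPM in WT and 55.6, 53.0 and 49.8 CPM in cpl2-2 (adjusted p = 0.38 for a log2 fold change of 0.08 ± 0.06). NAC013, which acts with NAC017 in mitochondrial signalling, was at 10.7, 11.2 and 9.60 CPM in WT and 12.0, 11.1 and 13.2 CPM in cpl2-2, overlapping slightly (adjusted p = 0.20 for a log2 fold change of 0.20 ± 0.12). NAC014 (-0.23, adjusted p = 0.16) and NTL9 (-0.19, adjusted p = 0.18), a factor of osmotic stress, had negative values. NTL8 and NAC060 had too few counts for the test, 15 and 1 in the 3 WT libraries together. Of 9 listed genes of the mitochondrial response that NAC013 and NAC017 are known to switch on, 5 were tested, 1 rose and 1 fell. The others had too few counts for the test. NDB4 had 0, 0 and 2 counts in WT and 3, 8 and 12 in cpl2-2, and UGT74E2 5, 2 and 2 against 12, 9 and 15. AOX1D had 0 in each WT library and 1, 1 and 3 in cpl2-2. AT12CYS overlapped between the genotypes, with 21, 11 and 5 counts in WT and 3, 7 and 8 in cpl2-2, and its mean was lower in cpl2-2. AOX1A, the alternative oxidase, had 525, 578 and 528 counts in WT and 758, 826 and 880 in cpl2-2 and rose without overlap (adjusted p = 8.0e-10 for a log2 fold change of 0.61 ± 0.07). OM66, an ATPase of the outer mitochondrial membrane, had 80, 88 and 83 counts in WT and 39, 54 and 61 in cpl2-2 and fell (-0.69 ± 0.22 on the log2 scale, adjusted p = 0.015), though without cpl2-2 replicate 1 the call was lost (-0.57, adjusted p = 0.080). UPOX, GSTU24 and AT2G41730 were not called, with log2 fold changes between -0.08 and 0.08. AOX1A and OM66, both targets of the same factors, thus moved in opposite directions.

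The members controlled by miR164 are shown with their sites, since pairing with the microRNA is what sets this group apart. AT3G12977 is shown for its sequence match alone and is not among the listed targets. The mature sequence of miR164a (chr2:19520770-19520790, plus strand, RefSeq) is given with its seed, bases 2 to 8, in capitals, and miR164b-5p is identical while miR164c-5p differs at the last base.
miR164a: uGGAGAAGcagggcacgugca

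Below it stand the 21-base sites in the coding sequences, 5′ to 3′ on the gene's strand. Bases that differ from the perfect complement of miR164a are in capitals, so a G:U pair is counted as a mismatch.
NAC1: AgcacgtAccctgcttctcca
ORE1: CTcacgtgAcctgcttctccG
NAC080: tTTacgtgccctgcttctcca
NAC100: tCTacgtgccctgcttctcca
CUC1: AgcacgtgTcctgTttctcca
CUC2: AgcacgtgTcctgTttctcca
AT3G12977: AgcaTgtAccctgcttctcca

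With up to 4 mismatches allowed, 11 of 27441 coding sequences of the genome held a site, and 7 of the 11 were these members. The site lies at chr1:20947142-20947162 in NAC1, at chr5:15858797-15858817 in ORE1 (both minus strand) and at chr5:2436958-2436978 in NAC080 (plus strand). In AT3G12977 it lies at chr3:4145631-4145651 and in CUC1 at chr3:5111137-5111157, both on the plus strand. That of NAC100 is at chr5:24701687-24701707 and that of CUC2 at chr5:21902301-21902321, both on the minus strand. CUC1 and CUC2 carry the same 21 letters. ORE1 has 4 mismatches by this count, the most among the 7, and NAC1, NAC080 and NAC100 have 2 each. The 3 genes that encode miR164 have no row in the deposited gene table, so their levels cannot be given.

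Of 6 listed targets of miR164, 5 were tested, 2 rose (NAC1 and ORE1, 40.0%, against 14.1% of all tested genes) and 0 fell, with a median log2 fold change of 0.10. NAC1, a factor of auxin signalling in lateral root formation, had 43, 49 and 36 counts in WT and 80, 79 and 73 in cpl2-2. The groups stood well apart, and the level rose from 2.09 ± 0.32 to 3.85 ± 0.37 CPM (adjusted p = 0.0033 for a log2 fold change of 0.88 ± 0.24). NAC1 overlaps 2 annotated genes on the opposite strand, and without a stated strand setting in the counting their reads cannot be told apart. NAC080 had 27, 28 and 25 counts in WT and 19, 12 and 18 in cpl2-2, lower in each cpl2-2 library, with a log2 fold change of -0.68 ± 0.38 that was not called (adjusted p = 0.20). NAC100, with 10, 35 and 30 counts in WT and 24, 24 and 22 in cpl2-2, overlapped (-0.08 ± 0.39 on the log2 scale, adjusted p = 0.91). Members with the same number of mismatches, G:U pairs included, therefore had log2 fold changes from -0.68 to 0.88.

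The organ boundary genes CUC1, CUC2 and CUC3, which separate cotyledons and leaves from each other and from the meristem, were scarce. CUC2 had 12, 13 and 11 counts in WT and 12, 9 and 17 in cpl2-2, and its log2 fold change of 0.10 ± 0.48 (adjusted p = 0.91) turned to -0.15 without cpl2-2 replicate 3. CUC3 had 21, 43 and 35 counts in WT and 28, 30 and 30 in cpl2-2 (adjusted p = 0.79 for a log2 fold change of -0.15 ± 0.33), and without WT replicate 2 the value was 0.08. CUC1 had 4, 10 and 4 counts in WT and 6, 8 and 7 in cpl2-2, too few for the test. For all 3 genes the libraries of the genotypes overlapped.

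Among members listed for leaf senescence, 7 of 8 were tested, 4 rose (ORE1, ORS1, JUB1 and NAC016) and 0 fell (57.1% higher, against 14.1% of all tested genes). Each of these 4 calls was lost in some fit that left out 1 library. The list was not exhaustive. NAC082 (log2 fold change 0.72) and NAC090 (too few counts for the test), also known to delay senescence, were counted with the other described roles. ATAF1 (-0.07), ATAF2 (-0.15), RD26 (0.08), NTL9 (-0.19) and NAC017 (0.24), also tied to leaf ageing, were counted in other lists. The share that rose and the signs of the values hold for the list as drawn. Under 5 CPM, where 6 of the 7 stand, 11.7% of all tested genes rose. The median log2 fold change of the 7 was 0.84, and all 7 values were positive. ORE1, the central promoter of leaf ageing, had 9, 13 and 17 counts in WT and 27, 30 and 34 in cpl2-2. The lowest cpl2-2 library stood above the highest WT library, and the level rose from 0.636 ± 0.19 to 1.50 ± 0.13 CPM (adjusted p = 0.014 for a log2 fold change of 1.23 ± 0.39). Without WT replicate 1 (1.03, adjusted p = 0.084) or cpl2-2 replicate 3 (1.16, adjusted p = 0.060), ORE1 was no longer called. ORS1, the close relative of ORE1 that also promotes senescence, had 21, 25 and 29 counts in WT and 51, 43 and 38 in cpl2-2. Its log2 fold change was 0.84 ± 0.31 (adjusted p = 0.038), and the call was lost without WT replicate 1 (0.73, adjusted p = 0.12), WT replicate 2 (0.83, adjusted p = 0.080), cpl2-2 replicate 1 (0.66, adjusted p = 0.19) or cpl2-2 replicate 2 (0.89, adjusted p = 0.055). DESeq2 did not call ORS1 either (adjusted p = 0.091). The genotypes did not overlap in ORS1, and its coding sequence matches that of ORE1 at 81.8% of aligned bases with no shared stretch of 50 bases.

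JUB1, a repressor of senescence that lowers hydrogen peroxide, had 7, 4 and 12 counts in WT and 25, 33 and 13 in cpl2-2. Replicate 3 of cpl2-2 stood just above the highest WT library, and the other 2 cpl2-2 libraries well above it. The log2 fold change was 1.63 ± 0.48 (adjusted p = 0.0082), and the call was lost without WT replicate 2 (1.32, adjusted p = 0.069) or cpl2-2 replicate 2 (1.36, adjusted p = 0.078). A gene on the opposite strand, AT2G42990, overlaps JUB1, so its reads are uncertain in the same way as those of NAC1. NAC046, a promoter of chlorophyll breakdown, had 19, 18 and 29 counts in WT and 52, 29 and 31 in cpl2-2, overlapping at 1 library, and was not called (adjusted p = 0.090 for a log2 fold change of 0.79 ± 0.35). VNI2, a repressor of senescence and of vessel formation, gave 40.5, 41.0 and 42.0 CPM in WT and 45.7, 41.5 and 42.8 in cpl2-2 (adjusted p = 0.43 for a log2 fold change of 0.07 ± 0.06). NAC087, which acts with NAC046 in cell death of the root cap, overlapped (0.21, adjusted p = 0.74). Per length VNI2 was the most abundant member in WT, at 27.3 ± 0.48 CPM per kb of gene length, ahead of NAC041 at 24.8 ± 1.6 and NAC078 at 22.1 ± 1.2.

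NAP, which promotes leaf yellowing and chlorophyll loss, fell short of the filter on low counts, with 1, 1 and 3 counts in WT and 13, 11 and 6 in cpl2-2. Every cpl2-2 library was above every WT library, and the summed counts, scaled to library size, were 6.08 times those of WT (exact 95% interval 2.34 to 20.1, counting error only). Of 12 listed genes of senescence and chlorophyll breakdown, 10 were tested, 2 rose and 1 fell. PPH, the pheophytinase, had 627, 695 and 768 counts in WT and 793, 905 and 872 in cpl2-2 and rose (adjusted p = 2.9e-04 for a log2 fold change of 0.32 ± 0.07). RCCR, the red chlorophyll catabolite reductase, rose from 80.7 ± 1.3 to 103 ± 6.5 CPM (0.36 ± 0.05 on the log2 scale, adjusted p = 6.6e-08). NYC1, the chlorophyll b reductase, fell from 441 ± 4.4 to 327 ± 2.8 CPM (-0.43 ± 0.03 on the log2 scale, adjusted p = 1.8e-16). The other 7 tested genes, among them SGR1 (-0.11, adjusted p = 0.51) and BFN1 (0.14, adjusted p = 0.77), were not called, and SAG12, the classic marker of ageing leaves, had 0 counts in all 6 libraries. Of the photosynthesis genes of the leaf list, 3 of 4 were lower in cpl2-2, and the part of that shift in the values of this group was not tested.

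In the ATAF subfamily and the related factors of abscisic acid and drought responses, 7 of 7 were tested, 2 rose (NAC032 and NAC055, 28.6%, against 14.1% of all tested genes) and 0 fell. NAC032 had 80, 114 and 107 counts in WT and 125, 167 and 158 in cpl2-2, or 3.95, 5.56 and 5.21 CPM against 6.67, 7.92 and 7.67 CPM. The groups did not overlap, and the log2 fold change was 0.60 ± 0.16 (adjusted p = 0.0044). Its subfamily relatives were more abundant and were not called. ATAF1 was at 10.2 ± 1.4 CPM per kb in WT and 9.66 in cpl2-2, with overlapping libraries (adjusted p = 0.66 for a log2 fold change of -0.07 ± 0.10), and the value was 0.03 without WT replicate 2. ATAF2 had a log2 fold change of -0.15 ± 0.08 (adjusted p = 0.20) and NAC102 one of -0.08 ± 0.08 (adjusted p = 0.51). NAC055, a factor of jasmonate and abscisic acid responses, had 3, 1 and 13 counts in WT and 19, 10 and 31 in cpl2-2. The highest WT library exceeded the lowest cpl2-2 library in CPM, and NAC055 was the only called member with such an overlap. Its log2 fold change of 1.82 ± 0.57 (adjusted p = 0.013) went from 1.33 without WT replicate 2 to 3.26 without WT replicate 3. The call was lost without WT replicate 1 (adjusted p = 0.081), WT replicate 2 (0.11) or cpl2-2 replicate 3 (0.14) and with DESeq2 (0.061). NAC019, the partner of NAC055 in those responses, had 15, 5 and 7 counts in WT and 13, 5 and 12 in cpl2-2 (adjusted p = 0.86 for a log2 fold change of 0.18 ± 0.56). RD26, the third of that group, stood at 3.09 ± 0.35 CPM in WT and 3.25 ± 0.19 in cpl2-2 (0.08 ± 0.22 on the log2 scale, adjusted p = 0.84), and at -0.02 without WT replicate 3.

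NAC096, which takes part in the dehydration response, had 23, 34 and 25 counts in WT and 52, 61 and 60 in cpl2-2. It rose from 1.34 ± 0.28 to 2.86 ± 0.074 CPM with no overlap (adjusted p = 0.0020 for a log2 fold change of 1.09 ± 0.28). NAC047, known for the upward bending of leaves in flooded plants, had 12, 10 and 21 counts in WT and 21, 36 and 28 in cpl2-2. Every cpl2-2 library was at or above the highest WT library in counts and above it in CPM, and the log2 fold change of 0.99 ± 0.40 was not called (adjusted p = 0.058).

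Of 9 members with other described roles, 7 were tested, 3 rose (NAC082, NARS2 and NAC036, 42.9%, against 14.1% of all tested genes) and 1 fell (LOV1, 14.3%, against 13.3%). The rise with the smallest p among the members was that of NAC082, which mediates the response to disturbed ribosomes and delays senescence. It had 673, 826 and 777 counts in WT and 1153, 1233 and 1299 in cpl2-2. All cpl2-2 libraries, at 61.5, 58.5 and 63.0 CPM, lay above all WT libraries, at 33.3, 40.3 and 37.9 CPM, and the log2 fold change was 0.72 ± 0.07 (adjusted p = 1.5e-12). Per length, NAC082 went from 14.7 ± 1.4 CPM per kb in WT, where 6 members were higher, to 24.1 ± 0.92 CPM per kb in cpl2-2, next to NAC017 at 23.8. NARS2, which acts with NARS1 in the seed coat, had 141, 153 and 167 counts in WT and 204, 257 and 236 in cpl2-2 and rose without overlap (adjusted p = 1.4e-04 for a log2 fold change of 0.61 ± 0.13). NARS1 went from 6.49 ± 1.1 to 8.04 ± 1.5 CPM with overlapping libraries (0.30 ± 0.16 on the log2 scale, adjusted p = 0.15). NAC036, whose overexpression is known to dwarf leaves and stems, is named after its values were seen. It stood at 6.38, 5.46 and 6.04 CPM in WT and 7.31, 9.06 and 8.88 CPM in cpl2-2 and rose (adjusted p = 0.0082 for a log2 fold change of 0.50 ± 0.15). TIP, a partner of a viral coat protein, was not called (-0.14 ± 0.10 on the log2 scale, adjusted p = 0.28).

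The 3 members that fell were LOV1, AT2G02455 and NAC057. LOV1, a repressor of flowering in long days and a factor of cold tolerance, had 342, 335 and 338 counts in WT and 203, 250 and 297 in cpl2-2. In CPM the WT libraries stood at 16.9, 16.3 and 16.5 and the cpl2-2 libraries at 10.8, 11.9 and 14.4, all lower but spread wider, with a log2 fold change of -0.42 ± 0.11 (adjusted p = 0.0020). AT2G02455 lies within LOV1 on the opposite strand (chr2:647880-648687, inside chr2:647538-650820), so without a stated strand setting reads of the 2 cannot be told apart. It had 35, 26 and 24 counts in WT and 21, 9 and 7 in cpl2-2 (adjusted p = 0.035 for a log2 fold change of -1.16 ± 0.42). Without cpl2-2 replicate 1 the value was -1.84. The call of AT2G02455 was lost without WT replicate 1 (adjusted p = 0.16), WT replicate 2 (0.065), cpl2-2 replicate 2 (0.15) or cpl2-2 replicate 3 (0.19) and with DESeq2 (0.10). NAC057, named after its values were seen, had 19, 29 and 35 counts in WT and 3, 16 and 17 in cpl2-2, with replicate 1 the lowest library of each genotype. Its log2 fold change was -1.19 ± 0.44 (adjusted p = 0.036), and the call was lost without WT replicate 2 (adjusted p = 0.098), WT replicate 3 (0.17) or cpl2-2 replicate 1 (-0.77, adjusted p = 0.23) and with DESeq2 (0.11).

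No member known for xylem walls was called. Of the 13 secondary wall switches, 8 were tested, and the VND genes, which turn cells into vessels, had log2 fold changes from -0.13 (VND6) to 0.64 ± 0.36 (VND2, adjusted p = 0.20). SND2, a factor of fibre walls, was at -0.30 ± 0.42 (adjusted p = 0.65). XND1, which holds vessel formation back, was at 0.26 ± 0.37 (adjusted p = 0.67). None of the 8 had an unadjusted p under 0.05 in edgeR's test. NST1 and NST2 had too few counts for the test, and NST3 had none. Of 11 genes downstream of these switches, all tested, 1 rose and 1 fell. XCP1, a protease of dying vessels that overlaps a gene on the opposite strand, rose from 14.7 ± 0.55 to 20.0 ± 2.3 CPM (adjusted p = 4.5e-04 for a log2 fold change of 0.44 ± 0.10). Its relative XCP2 fell from 29.4 ± 0.31 to 23.1 ± 1.4 CPM (-0.35 ± 0.08 on the log2 scale, adjusted p = 4.0e-04). The cellulose synthase genes CESA4, CESA7 and CESA8 were not called, with values from -0.07 to 0.25.

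The sieve element genes NAC045 and NAC086, which drive the loss of the nucleus in phloem cells, were not called. NAC086 had 13, 14 and 28 counts in WT and 6, 6 and 11 in cpl2-2, below WT in every library, with a log2 fold change of -1.23 ± 0.50 (adjusted p = 0.063). NAC045 overlapped, at 1.49 ± 0.32 and 1.50 ± 0.53 CPM (0.03 ± 0.34 on the log2 scale, adjusted p = 0.96). The root cap genes SMB and BRN1 had 1 and 7 counts in WT and 6 and 4 in cpl2-2 in all, and FEZ and BRN2 had none.

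SOG1, the master regulator of the plant response to DNA damage, was at 8.75, 10.1 and 12.0 CPM in WT and 10.3, 12.0 and 11.5 in cpl2-2. The libraries overlapped, and SOG1 was not called (adjusted p = 0.47 for a log2 fold change of 0.13 ± 0.12). Of the 2 factors that act below SOG1 to halt the cell cycle, NAC044 overlapped and was not called (0.62 ± 0.40 on the log2 scale, adjusted p = 0.26), and NAC085 was too scarce for the test. NAC085 had 0, 0 and 1 counts in WT and 8, 9 and 5 in cpl2-2, 22.3 times as many after scaling (exact 95% interval 3.60 to 920). Of 11 listed SOG1 targets, 8 were tested, 1 rose and 2 fell. GMI1, a gene of recombination repair that overlaps another on the opposite strand, had 44, 44 and 56 counts in WT and 134, 106 and 163 in cpl2-2 and rose (adjusted p = 6.5e-08 for a log2 fold change of 1.51 ± 0.20). PARP2, a poly(ADP-ribose) polymerase, fell (-0.70 ± 0.20 on the log2 scale, adjusted p = 0.0066), a call that was lost without WT replicate 3 (-0.52, adjusted p = 0.093). TSO2, a ribonucleotide reductase subunit, fell from 82.9 ± 3.4 to 68.1 ± 2.4 CPM (-0.28 ± 0.05 on the log2 scale, adjusted p = 1.9e-05). BRCA1 was not called (-0.43, adjusted p = 0.13).

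**Figure D4:**
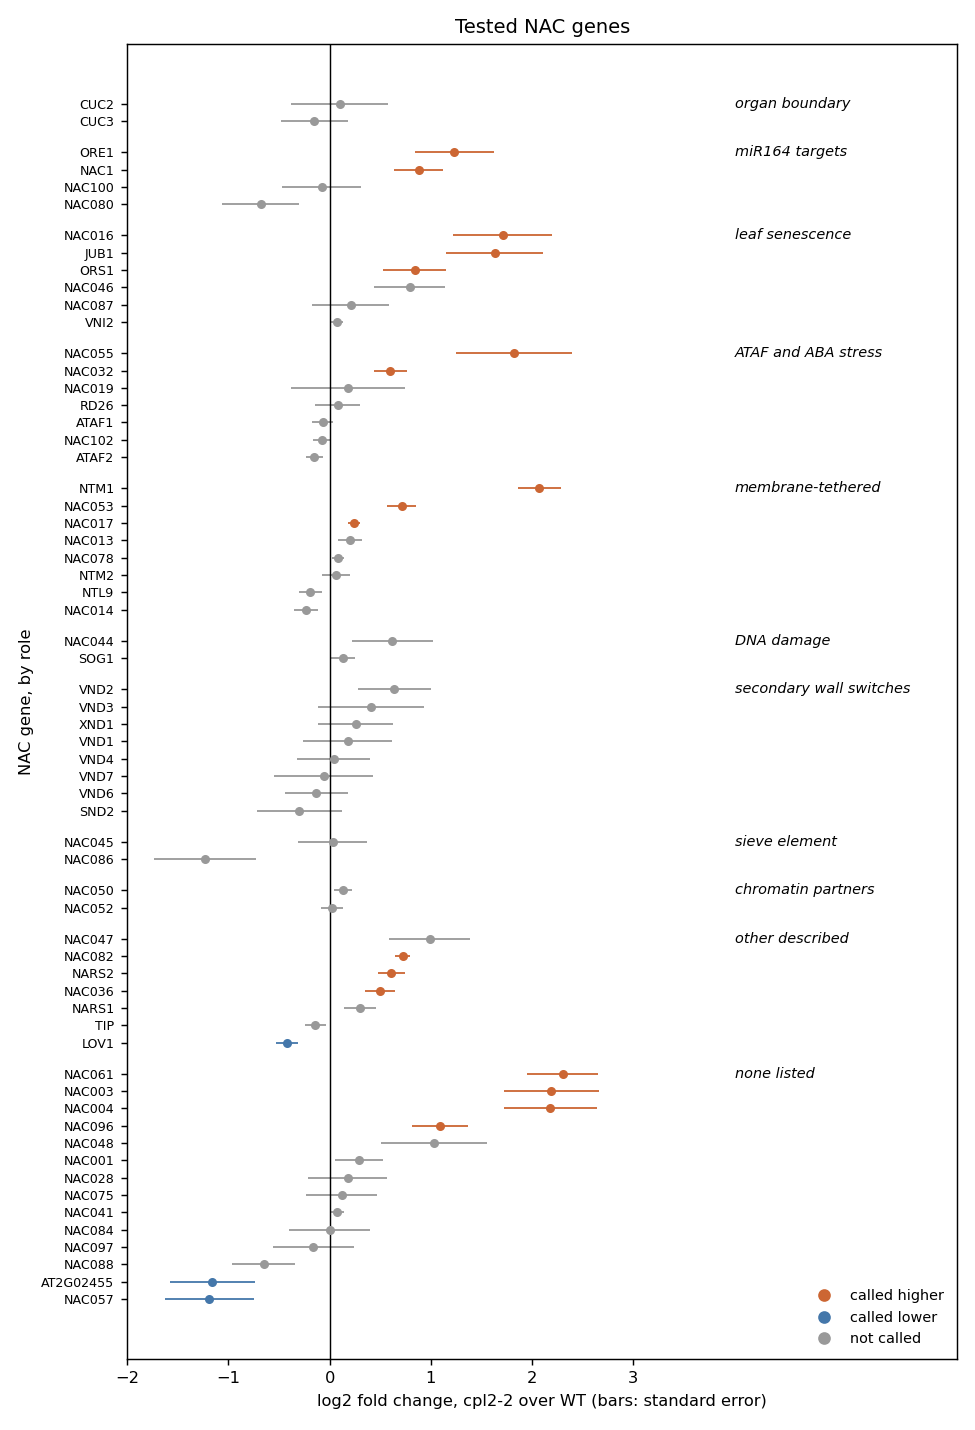
log2 fold change (cpl2-2 over WT) of the 62 tested NAC genes, with bars of 1 standard error on each side, grouped by role, each gene drawn once under the first list that holds it. Orange marks the 17 genes that rose, blue the 3 that fell and grey the 42 that were not called. The called genes stand in 5 of the role groups and in the group without a listed role, and the xylem, boundary, DNA damage, sieve element and chromatin groups hold none.

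Of the 46 members in no role list, 29 had a count in some library and 14 were tested, of which 4 rose (NAC061, NAC003, NAC004 and NAC096, 28.6%, against 14.1% of all tested genes) and 2 fell (AT2G02455 and NAC057, 14.3%, against 13.3%). Among the abundant members without a listed role, NAC041 had 36.5, 32.4 and 33.2 CPM in WT and 37.5, 33.5 and 36.4 in cpl2-2, overlapping (adjusted p = 0.48 for a log2 fold change of 0.07 ± 0.07). NAC048 had 16, 0 and 13 counts in WT and 14, 21 and 24 in cpl2-2 and was not called (1.03 ± 0.52 on the log2 scale, adjusted p = 0.15). NAC088, with 33, 47 and 47 counts in WT and 17, 32 and 31 in cpl2-2, stood lower in each cpl2-2 library and was not called (-0.65 ± 0.31 on the log2 scale, adjusted p = 0.12). NAC058 was detected in WT alone, with 2, 1 and 4 counts against 0 in each cpl2-2 library, and the counting interval of its scaled ratio reached up to 0.703. The other 5 tested members without a listed role had log2 fold changes from -0.16 (NAC097) to 0.29 (NAC001) and were not called. Of the 28 members with too few counts for the test, SND3, a factor of xylem walls, held the most, with 10, 22 and 9 counts in WT and 4, 12 and 6 in cpl2-2, and NAC020 followed with 5, 16 and 0 in WT and 7, 17 and 6 in cpl2-2. Among the members named, NAC013, NAC045, NAC078, NAC088, NAC102, ATAF1, ATAF2, VND2, VND6 and VNI2 likewise share bases with a gene annotated on the other strand.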

How the data were processed

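The deposited values are raw read counts: whole numbers for each gene, not normalized, in a column for each of the 6 libraries. Per the submitters' processing notes, HISAT2 2.0.5 and the TAIR10 build were used. The counting program, its strand setting and its annotation were not given in the sources used here. Genes that overlap on opposite strands, 4 of the 20 called members among them, therefore have uncertain values. The design text calls the 3 replicates per genotype biological, and p-values measure only the spread between these samples. Libraries held 18299294 to 21098728 counts, so a gene at 1 CPM rests on about 20 counts.

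Counts were filtered with edgeR's filterByExpr, scaled with TMM factors and tested with its quasi-likelihood F test with genotype as the sole term (version 4.0.16 under R 4.3.3) over all 19302 genes kept, with Benjamini-Hochberg adjustment and a threshold of 0.05. Fold changes are log2 of cpl2-2 over WT with their standard errors (SE). CPM are mean ± SD over 3 libraries, and CPM per kb use the gene length of the deposited table. Counting intervals are exact at 95% and, as the labels name no molecular identifiers, cover counting error only. DESeq2 1.42.0, limma-voom (limma 3.58.1), other scalings, no filter, a replicate block and leaving out each library were alternatives. The procedure was tested on simulated data with 200 changed genes. Sequences come from the RefSeq annotation of TAIR10.1, in which the start and end of all 110 members equal those of the deposited table.

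Members and lists were chosen with earlier results of these data known. Named were the 10 largest rises and 10 largest falls among called members that averaged 1 CPM or more and did not overlap (2 falls met this), up to 3 called members of each role list and 3 called genes of each target list by p, and ORE1, NAP, ATAF1, RD26, NAC017, NAC013, SOG1, CUC2 and CUC3. Other genes named beside them describe a list, a neighbour or a count of few members, and were picked with their values in view.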

Additional observations from a re-analysis of the deposited data

How the results depend on the processing

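Across the alternatives the number of members that rose was 17 with DESeq2 and with median-of-ratios size factors, 18 with limma-voom and with library totals, 19 without the filter on low counts and 14 to 19 when 1 library was left out. The number that fell was 3 in the other fits but 1 with DESeq2, and 1 to 2 when 1 library was left out, with LOV1 the member kept. Without the filter and with DESeq2, NAP and NAC085 were called higher, and NAP also without WT replicate 3 or cpl2-2 replicate 3. Among the members that rose, DESeq2 did not call ORS1 and NAC055. Of the 20 called members, 13 kept their call under all 12 alternatives, and the 7 that lost it at least once were ORE1, ORS1, JUB1, NAC016, NAC055, NAC057 and AT2G02455. Of the members not called, only CUC2, CUC3, ATAF1, RD26, NAC013 and SOG1 were followed gene by gene through the alternatives. With 1 library left out, the sign turned for CUC2 (-0.15 without cpl2-2 replicate 3, up to 0.32) and CUC3 (0.08 without WT replicate 2, down to -0.39). It also turned for ATAF1 (0.03 without WT replicate 2, down to -0.17) and RD26 (-0.02 without WT replicate 3, up to 0.13). For NAC013 and SOG1 the sign of the log2 fold change was kept. Library totals in place of TMM factors moved the median of all genes by 0.07 on the log2 scale and made 3952 of all genes higher (20.5%), while 18 members rose. In the main fit 14.1% of the 19302 tested genes rose. This share was 8.59% of 25556 genes with DESeq2 and 10.8% of 25558 genes without the filter on low counts. With 1 library left out it was at most 12.7%. The member counts of these fits therefore stand against different shares of all genes. Equal replicate numbers did not pair the samples, as deviations of same-numbered libraries correlated at -0.012, 0.010 and 0.013. With the replicate block 16 members rose and 3 fell, and ORS1 alone lost its call (adjusted p = 0.052). Depth limits the members under 1 CPM, where a log2 fold change has a standard error of 0.44 to 0.57 among those called.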
